A study of Mus musculus with 32 samples.

Results

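Transient sites were stretches of open chromatin listed in both intermediate populations of reprogramming mouse fibroblasts, SSEA1-Thy1- cells and SSEA1+ cells, and listed neither in the fibroblasts at day 0 nor in the GFP+ cells at the end. They were chosen from the deposited ATAC-seq peak lists of the 5 control shRNA populations, which were pooled on chromosomes 1 to 19 and X and merged wherever intervals overlapped by 1 bp or more. The rule gave 44606 transient sites of 259154 sites in all, which is 17.2%. They made up 29.5% of the 151225 sites of the SSEA1-Thy1- control list and 32.9% of the 135734 sites of the SSEA1+ control list. Because these lists chose the sites, their absence at day 0 and in GFP+ cells and their presence in both intermediates are the definition and not a result. The 10 lists that the rule did not use, the genomic positions and the promoter sequences are what is described below.

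ATAC-seq marks open chromatin through a transposase that inserts sequencing adapters where DNA is accessible. The starting cells were mouse embryonic fibroblasts (OG2-MEFs, whose GFP reporter reports Pou5f1 activity) given Oct4, Sox2, Klf4 and c-Myc (OSKM) by virus and kept in stem cell medium with vitamin C. The 32 samples fell into 15 groups with 1 deposited peak list each. CTCF shRNA and control shRNA against luciferase were each given to fibroblasts taken at day 0 and to reprogramming cells sorted as Thy1+ (days 3, 6 and 9), SSEA1-Thy1- (days 6 and 9), SSEA1+ (days 6 and 9) and GFP+ (day 12). Unsorted OSKM cells at day 10 carried CTCF overexpression with Smarca5 shRNA, CTCF overexpression alone, or the overexpression control. Unsorted cells at day 12 carried Smarca5 shRNA or control shRNA. The labels also describe a doxycycline-inducible OSKM virus, and do not say which samples received it. The lists of the 3 sorted intermediates come from single samples of several days, and those of day 0 and GFP+ cells from 2 replicates of 1 day. Time, pooling, depth and cell state therefore cannot be told apart in the rule itself. Read depth is unknown, and ATAC lists do not show whether CTCF or Smarca5 RNA was lowered. As each group has a single list, nothing could be tested over replicates. Intervals are exact Clopper-Pearson 95% intervals that cover counting error over sites only.

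During reprogramming, fibroblast enhancers close and those of pluripotent cells open, and intermediates pass through states in which the exogenous factors bind closed chromatin away from their targets in stem cells. Somatic factors such as AP-1 (Fos and Jun dimers) are known to hold fibroblast enhancers open. CTCF is the zinc finger protein that stops loop extrusion by cohesin and marks domain borders. Smarca5 is the ATPase of ISWI complexes, which space nucleosomes and help CTCF to bind. In the control lists the gene ends of Nanog, a core pluripotency factor, were outside the day 0, Thy1+ and SSEA1-Thy1- lists and inside the SSEA1+ and GFP+ lists; in the SSEA1+ CTCF shRNA list they were absent. Those of Pou5f1 were in the day 0, SSEA1-Thy1- and GFP+ lists of both shRNAs and absent from the Thy1+ and SSEA1+ lists. Those of Esrrb, another pluripotency gene, were only in the day 10 list of CTCF overexpression alone. Gene ends of Col1a1 and Twist1, which fibroblasts express, were in all 15 lists. Also in all 15 were those of Thy1, which encodes a sorted marker, and of Fut4, taken here to stand for SSEA1. So in the day 0 and sorted lists, peaks at these markers separated the populations only at Nanog and Pou5f1. Bulk lists cannot tell fewer open cells from less open chromatin per cell.

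Few transient sites lay at promoters, and these few are the ones whose sequence can be shown, since the RefSeq table used (GRCm38.p6) covers 250 bases before to 50 after each transcription start. A transient site overlapped 281 of 32619 such windows, or 0.861%. The sequences shown are each cut to the bases before the start that lie inside the transient site and written 5′ to 3′ on the gene's strand. Ivl and Krtdap are shown as epidermal genes of the keratinocyte list. Sprr2b, Sucnr1 and Ptprh are shown because they were the 3 protein-coding promoters under a transient site that held both an AP-1 match (TGANTCA) and a match to the octamer that Pou factors such as Oct4 bind (ATGCAAAT, either strand). Capitals mark these matches.
Ivl: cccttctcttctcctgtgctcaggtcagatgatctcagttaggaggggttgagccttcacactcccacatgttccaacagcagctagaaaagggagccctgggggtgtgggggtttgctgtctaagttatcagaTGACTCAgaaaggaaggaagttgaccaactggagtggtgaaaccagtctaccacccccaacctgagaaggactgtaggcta
Krtdap: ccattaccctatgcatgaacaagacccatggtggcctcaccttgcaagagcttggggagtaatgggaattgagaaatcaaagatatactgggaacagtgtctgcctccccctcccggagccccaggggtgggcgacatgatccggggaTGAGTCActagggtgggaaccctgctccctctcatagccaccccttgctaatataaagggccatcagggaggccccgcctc
Sprr2b: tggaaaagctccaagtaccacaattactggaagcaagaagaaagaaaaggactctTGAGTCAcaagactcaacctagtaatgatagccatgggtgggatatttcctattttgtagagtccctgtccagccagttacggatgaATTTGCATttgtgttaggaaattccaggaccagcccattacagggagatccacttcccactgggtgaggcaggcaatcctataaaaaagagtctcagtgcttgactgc
Sucnr1: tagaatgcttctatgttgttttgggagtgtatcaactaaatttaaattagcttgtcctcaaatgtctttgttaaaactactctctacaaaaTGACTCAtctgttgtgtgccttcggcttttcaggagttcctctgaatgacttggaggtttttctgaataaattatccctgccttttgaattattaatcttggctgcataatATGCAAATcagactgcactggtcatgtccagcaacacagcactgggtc
Ptprh: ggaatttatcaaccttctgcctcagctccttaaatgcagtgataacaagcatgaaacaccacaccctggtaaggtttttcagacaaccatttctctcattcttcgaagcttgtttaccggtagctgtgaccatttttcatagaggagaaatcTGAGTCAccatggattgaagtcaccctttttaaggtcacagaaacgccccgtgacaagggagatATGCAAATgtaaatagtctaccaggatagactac

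The Ivl stretch is chr3:92573771-92573985 on the minus strand, and its AP-1 match TGACTCA lies 116 to 110 bases before the start. Ivl encodes involucrin, a protein of the cornified envelope. Its site was listed in the Thy1+, SSEA1-Thy1- and SSEA1+ lists of both CTCF shRNA and control cells and in no other list. The Krtdap stretch is chr7:30787676-30787904 on the plus strand, with TGAGTCA 81 to 75 bases before the start. Krtdap, a secreted protein of differentiating keratinocytes, had a site that was also in the GFP+ CTCF shRNA list and in all 3 day 10 lists. For Sprr2b, another cornified envelope gene, the stretch is chr3:92316455-92316704 on the plus strand, with TGAGTCA at 195 to 189 and ATTTGCAT at 108 to 101 bases before the start. The Sprr2b site was in the same lists as that of Krtdap. Sucnr1, the receptor of succinate, is shown at chr3:60081619-60081868 on the plus strand, with TGACTCA at 159 to 153 and ATGCAAAT at 48 to 41 bases before the start. Its site was in the day 10 list of CTCF overexpression with Smarca5 shRNA and in the day 10 control list, and absent from the list of CTCF overexpression alone. Ptprh, a receptor tyrosine phosphatase, is shown at chr7:4604042-4604291 on the minus strand, with TGAGTCA at 98 to 92 and ATGCAAAT at 34 to 27 bases before the start. The Ptprh site was in the same lists as that of Krtdap. None of the 5 was in the day 0 CTCF shRNA list or in either day 12 list.

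The transient sites were uniform in form. Of the 44606, 44327 were exactly 400 bp wide, the width of every deposited interval, and the widest was 797 bp. The same interval stood in both intermediates' control lists for 44582 sites. The nearest day 0 or GFP+ control interval lay a median of 4120 bp away (quartiles 1750 and 9184 bp). Just inside the rule, 69 sites had such an interval within 100 bp, the closest at 3 bp. Over 700 bp wide were 63 transient sites, and 454 sites just outside the rule, which were in both intermediates and also touched a day 0 or GFP+ interval. Sites that met the rule in 1 intermediate alone were fewer: 7062 for the SSEA1-Thy1- list and 5466 for the SSEA1+ list.

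For comparison, 3 other classes were also listed in both intermediate control lists. Opened and kept sites were in GFP+ cells too and not at day 0 (22330 sites). Late closing sites were at day 0 and not in GFP+ cells (13439). Sites held throughout were in all 4 of these control lists (41904). The Thy1+ control list, on which the rule sets no condition, held 30425 transient sites, or 68.2% (67.8 to 68.6). It held 77.6% of the opened and kept sites, 97.7% of the late closing sites and 99.3% of the sites held throughout. In control cells, 14181 transient sites were thus absent from Thy1+ cells, which still carry the fibroblast surface marker.

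Most transient sites were listed at the same stages when CTCF was knocked down. The SSEA1-Thy1- CTCF shRNA list held 43855 of them, 98.3% (98.2 to 98.4), and the SSEA1+ CTCF shRNA list held 41194, 92.4% (92.1 to 92.6). An identical interval stood in the SSEA1-Thy1- control and CTCF shRNA lists for 43836 transient sites. Peak positions thus appear to be shared by this pair of lists, and the 98.3% does not compare separately placed peaks. Identical intervals were not counted for the other pairs of control and CTCF shRNA lists. Asking for 200 bp of overlap moved the number of transient sites held there by 1 at most. The shares in those lists may therefore not compare separately placed peaks either. At day 0 the CTCF shRNA list held 1472, 3.30% (3.14 to 3.47). The GFP+ CTCF shRNA list held 8791, 19.7% (19.3 to 20.1). Because the control lists chose the sites, any difference between a pair of lists, chance included, can only lower the shares in the intermediates and raise those at day 0 and in GFP+ cells. The shares are therefore read against all sites and against the other classes, which were chosen in the same way.

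**Figure D1:**
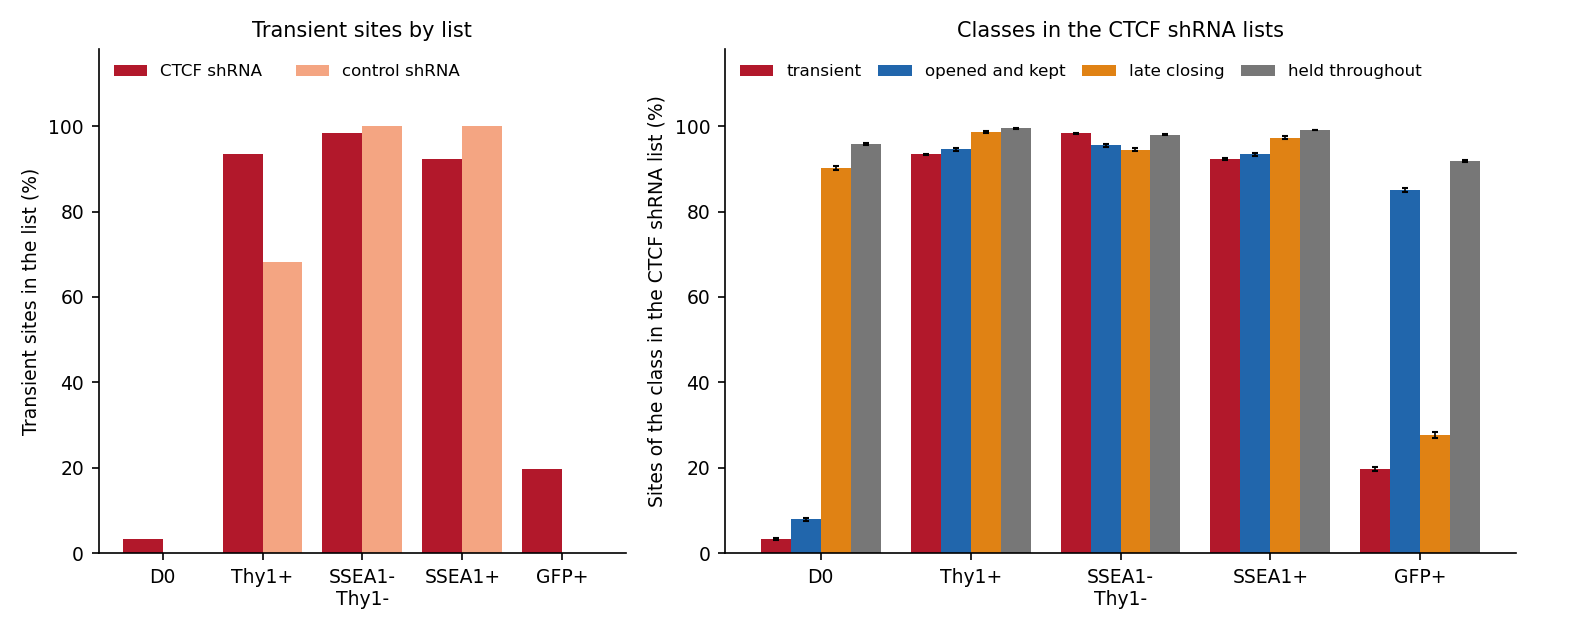
Left, share of the 44606 transient sites (%) in the CTCF shRNA and control shRNA list of each population; the control bars at day 0, SSEA1-Thy1-, SSEA1+ and GFP+ are fixed by the rule. Right, share of each class (%) in the 5 CTCF shRNA lists, with exact 95% intervals over sites; transient sites stand at 3.30% at day 0 and 19.7% in GFP+ cells, and above 92% between them.

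Losses in the intermediates were small. Of the transient sites, 1.68% were absent from the SSEA1-Thy1- CTCF shRNA list, where 8.74% of all sites of the control list were absent. The shares absent there were 4.51% of opened and kept, 5.49% of late closing and 2.00% of sites held throughout. In SSEA1+ cells 7.65% of transient sites were absent with CTCF shRNA, beside 7.99% of all sites. The other classes lost 6.63%, 2.69% and 0.904% there, in the same order. Sites found in 1 intermediate alone were listed less often under CTCF shRNA: 76.9% of those of SSEA1-Thy1- cells and 59.6% of those of SSEA1+ cells were in their own population's CTCF shRNA list.

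At the ends of the route, the day 0 CTCF shRNA list gained 3.30% of the transient sites, where 6.02% of all sites outside the day 0 control list were gained. Opened and kept sites, also absent at day 0 by choice, gained 7.98% (7.62 to 8.34). In GFP+ cells the CTCF shRNA list gained 19.7% of transient sites, against 14% of all sites outside the GFP+ control list. Late closing sites, absent from GFP+ control cells by choice, gained 27.6% (26.9 to 28.4). The GFP+ CTCF shRNA list was also longer, with 103454 merged peaks against 91323 in the GFP+ control list. The part of list length in these gains was not tested.

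The Thy1+ pair is the only one of the 5 in which the rule fixed neither list. There the CTCF shRNA list held 41642 transient sites, 93.4% (93.1 to 93.6), against 68.2% in the control list. Of the 14181 transient sites absent from the Thy1+ control list, 11940 were in the CTCF shRNA list, 84.2% (83.6 to 84.8), where 47.6% of all sites outside the control list were gained. Of the 30425 in the control list, 723 were absent with CTCF shRNA, 2.38%, beside 8.2% of all sites, 2.00% of opened and kept, 1.08% of late closing and 0.423% of sites held throughout. The gain was not particular to transient sites: opened and kept sites gained 82.8% (81.7 to 83.9), and all sites of both intermediates together 84.0% (83.4 to 84.5). The Thy1+ CTCF shRNA list was longer than its control, with 213369 merged peaks against 194430.

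Transient sites differed by whether the Thy1+ control list held them. Those in it were in the SSEA1+ CTCF shRNA list in 97.2% of cases, and those outside it in 81.9%. In the GFP+ CTCF shRNA list were 21.8% of those in it and 15.2% of those outside it, and in the day 0 CTCF shRNA list 4.45% of those in it and 0.839% of those outside it. Within 1 kb of a gene end were 2.92% of those in it and 3.45% of those outside it. Transient sites outside the Thy1+ control list were thus listed less often in each of these 3 CTCF shRNA lists. So were opened and kept sites: 97.2% of those in the Thy1+ control list and 80.0% of those outside it were in the SSEA1+ CTCF shRNA list, 85.4% and 83.5% in the GFP+ one, and 9.60% and 2.35% in the day 0 one.

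Site by site, a site in a list is called open here and a site outside it closed. In the CTCF shRNA lists, 31510 transient sites, 70.6% (70.2 to 71.1), also had the full order. They were closed at day 0, open in both intermediates and closed in GFP+ cells. The next commonest order kept the site open in GFP+ cells (7893 sites, 17.7%). Sites already open at day 0 with CTCF shRNA and closed in GFP+ cells numbered 981, or 2.20%. In none of the 5 CTCF shRNA lists were 89 sites. The transient order under CTCF shRNA was found in 12.49% of opened and kept sites, 6.55% of late closing sites and 0.465% of sites held throughout. These shares are low by choice, since the control lists put these classes in GFP+ cells, at day 0 or in both. Each class's own order was kept under CTCF shRNA by 71.1% of opened and kept, 60.3% of late closing and 86.6% of sites held throughout. Keeping the control order was thus not particular to transient sites. The transient rule applied to the CTCF shRNA lists alone gave 43593 sites of 263195. The shared sites were 70.6% of the control set and 72.3% of the CTCF shRNA set.

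One list stood apart. Transient sites could not be gained in either intermediate, being in both control lists by choice, but 46.1% of all sites outside the SSEA1+ control list were gained with CTCF shRNA, and 20.6% of those outside the SSEA1-Thy1- control list. With 47.6% gained in Thy1+ cells, that gain alone does not set the SSEA1+ list apart, while its share of the sites that close between day 0 and GFP+ cells does. The SSEA1+ CTCF shRNA list held 55.6% of all sites that were in the day 0 control list and not in the GFP+ control list, against 15.1% in the SSEA1+ control list. The Thy1+ lists held 75.6% with CTCF shRNA and 79.5% in control, and the SSEA1-Thy1- lists 31.3% with CTCF shRNA and 28.9% in control. Without asking for the SSEA1+ CTCF shRNA list, the order was kept by 34219 transient sites, 76.7% (76.3 to 77.1). What sets this list apart was not tested.

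In unsorted cells at day 10 most transient sites were not listed, and the list of CTCF overexpression alone held the fewest of the 3. The list of CTCF overexpression with Smarca5 shRNA held 6639 transient sites, 14.9% (14.6 to 15.2). CTCF overexpression alone held 4232, 9.49% (9.22 to 9.76), and the overexpression control held 6029, 13.5% (13.2 to 13.8). In the same order, opened and kept sites were at 44.5%, 48.9% and 50.5%, late closing sites at 40.9%, 33.0% and 39.6%, sites held throughout at 73.5%, 79.2% and 81.0%, and all sites at 23.8%, 24.1% and 26.0%. Peak positions were set separately at day 10: only 29 transient sites had an identical interval in the day 10 control list, so the level of a share at day 10 is read against the other classes and not against the sorted lists.

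**Figure D2:**
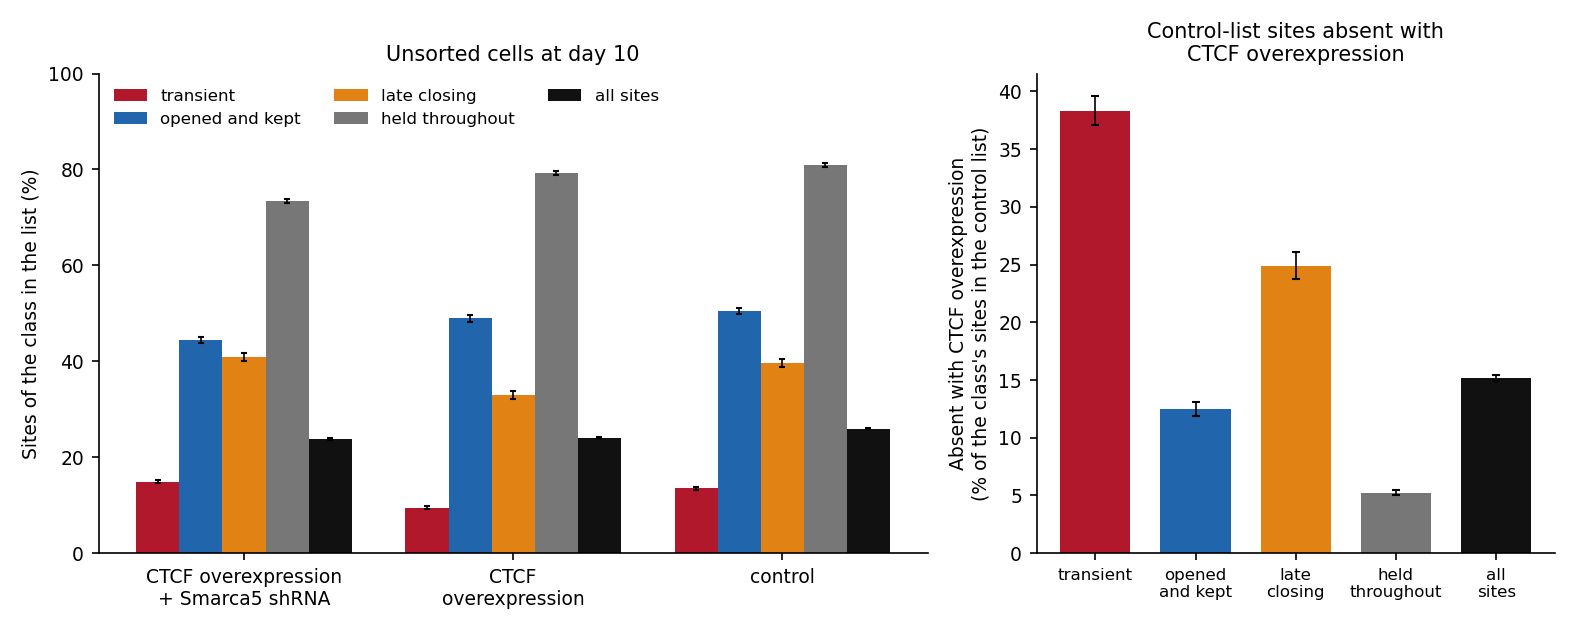
Left, share of each class (%) in the 3 unsorted day 10 lists; transient sites stand at 14.9%, 9.49% and 13.5%, lowest with CTCF overexpression alone. Right, share of each class's sites in the day 10 control list (%) that were absent with CTCF overexpression, 38.3% of transient sites and 15.2% of all sites; error bars are exact 95% intervals over sites.

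Of the 6029 transient sites in the day 10 control list, 2311 were absent with CTCF overexpression, 38.3% (37.1 to 39.6), where 15.2% of all sites in that list were absent. Late closing sites lost 24.9%, opened and kept sites 12.51% and sites held throughout 5.23%. Sites that met the rule in 1 intermediate alone lost more, 159 of 343 (46.4%) for SSEA1-Thy1- and 119 of 233 (51.1%) for SSEA1+ cells, so the loss was not particular to transient sites. Gains with CTCF overexpression reached 514 of the other 38577 transient sites, 1.33%, beside 2.76% of all sites. When Smarca5 shRNA was added, 2773 of the 40374 transient sites outside the CTCF overexpression list were gained, 6.87% (6.62 to 7.12), where 4.71% of all sites were gained. Opened and kept sites gained 9.89% at that step, late closing sites 15.6% and sites held throughout 12.8%. The transient share was the lowest of the 4 classes, but 37006 of the 40374 transient sites were in no day 10 list. The order differed among sites in the control list and absent with CTCF overexpression. Of these, the list with Smarca5 shRNA held 74.3% of transient, 57.0% of opened and kept and 74.7% of late closing sites. It held 49.9% of such sites held throughout and 59.7% of all such sites. Whether these returns exceed chance was not tested. Losses when Smarca5 shRNA was added were 366 of 4232, 8.65%, beside 16% of all sites. At the same step opened and kept sites lost 19.4% and late closing sites 7.74%. Set against the day 10 control directly, CTCF overexpression with Smarca5 shRNA lacked 780 of 6029 transient sites, 12.9%, beside 16.2% of all sites, and gained 1390, 3.60%, beside 2.73%. The other classes gained more there, with 6.21% of opened and kept, 8.37% of late closing and 7.67% of sites held throughout. These 3 comparisons share lists with one another, so they are not independent of each other. The day 10 lists had 66313 merged peaks with CTCF overexpression and Smarca5 shRNA, 67551 with CTCF overexpression and 72406 in control.

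The transient sites that were listed in unsorted day 10 control cells had other features in the sorted lists. The Thy1+ control list held 89.1% (88.3 to 89.9) of them and 64.9% (64.5 to 65.4) of the rest. The GFP+ CTCF shRNA list held 31.9% (30.8 to 33.1) of them and 17.8% (17.4 to 18.2) of the rest. The opened and kept sites split the same way: the Thy1+ control list held 85.3% of the opened and kept sites in the day 10 control list and 69.7% of the rest, and the GFP+ CTCF shRNA list held 93.0% of the listed and 76.7% of the rest. The median distance of the listed transient sites to a RefSeq start was 42.3 kb, against 40.9 kb for the rest. Among these 6029, the 2311 absent with CTCF overexpression lay at a median of 50.6 kb from a start and the 3718 kept at 38.6 kb. The GFP+ CTCF shRNA list held 23.1% (21.4 to 24.9) of the absent sites and 37.4% (35.9 to 39.0) of the kept sites. Opened and kept sites split in the same direction, with 85.9% of absent and 94.0% of kept sites in that list, and medians of 31.1 kb and 24.1 kb from a start.

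Unsorted cells at day 12 hardly held transient sites. The Smarca5 shRNA list had 387, 0.868% (0.784 to 0.958), and the control list 221, 0.495% (0.432 to 0.565). With at least 200 bp of overlap asked for, 268 (0.601%) were left with Smarca5 shRNA and 129 (0.289%) in control. Opened and kept sites were at 17.7% with Smarca5 shRNA and 16.6% in control, late closing sites at 18.6% with Smarca5 shRNA and 17.4% in control, and sites held throughout at 58.2% with Smarca5 shRNA and 58.0% in control. With Smarca5 shRNA, 40 of the 221 were lost, 18.1%, where 4.46% of all sites were lost, and 206 were gained, 0.464%, where 1.22% were gained. The day 12 lists were the shortest, with 44271 merged peaks for Smarca5 shRNA and 43610 for control.

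Transient sites lay far from promoters. Within 1 kb of either end of a protein-coding gene were 1378 of them, 3.09% (2.93 to 3.25), against 8.68% of all sites. Opened and kept sites were there in 5.89% of cases, late closing sites in 4.67% and sites held throughout in 32.9%. Gene bodies held 51.8% of transient sites and 52.8% of all sites. More than 50 kb from any protein-coding gene were 11570 transient sites, 25.9% (25.5 to 26.3), beside 16.7% of opened and kept and 22.5% of all sites. The median distance to a RefSeq start was 41.2 kb (quartiles 14.6 and 121 kb), against 24.9 kb for opened and kept sites, 31.9 kb for late closing sites and 10.3 kb for sites held throughout.

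**Figure D3:**
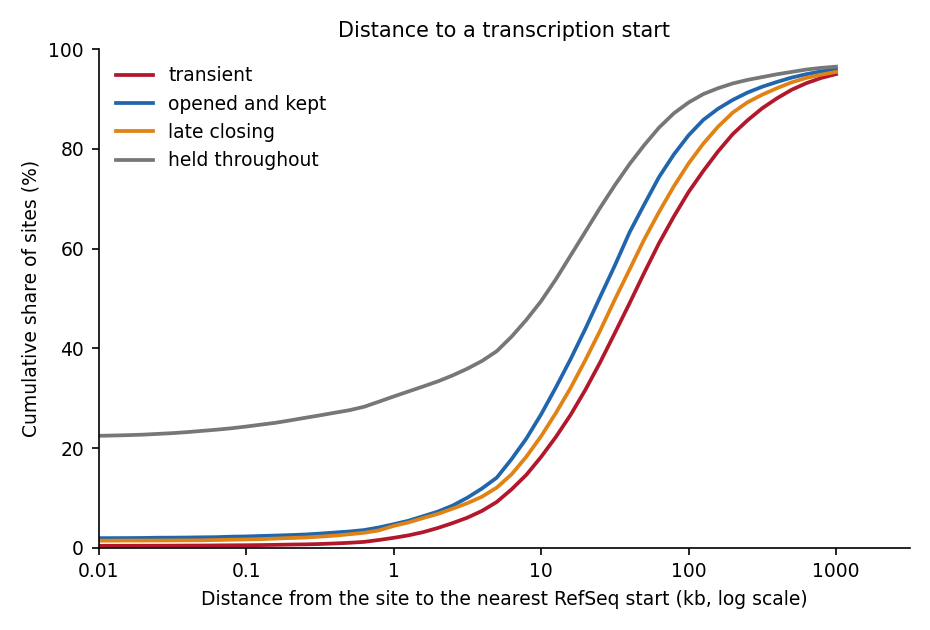
Cumulative share of sites (%) by distance to the nearest RefSeq transcription start (kb, log scale), one line per class. The line of the transient sites runs lowest, with a median of 41.2 kb.

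They were spread over all chromosomes. On the 19 autosomes, transient sites made up between 14.5% of sites (chromosome 19) and 19.8% (chromosome 3), around 17.2% overall. The median step from one transient site to the next was 29852 bp. Most stood alone: joining neighbours no farther apart than the 50 kb gene margin divided by 4 gave 32186 runs, of which 23621 were single sites, or 52.95% of the transient sites. Runs of 5 or more numbered 276 and held 1506 sites, 3.38%.

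The longest run had 10 transient sites in 57.4 kb (chr9:9147255-9204631) over Arhgap42, which encodes a GTPase-activating protein. The Thy1+, SSEA1-Thy1-, SSEA1+, GFP+ and day 0 CTCF shRNA lists held 9, 10, 10, 5 and 1 of them, the Thy1+ control list 9, and each day 10 list 1. A run of 9 lay in 41.7 kb of Negr1, a neuronal adhesion molecule (chr3:156733800-156775462). All 9 were in the 3 CTCF shRNA lists of the intermediates, none in the day 0 or GFP+ CTCF shRNA list, and 5 in the Thy1+ control list. Runs of 8 sites lay over Nf1, the neurofibromin gene, over Wdr43, Mlip, Bckdhb, Trerf1 and Gm4832, and over the neighbours Bcl2l15 and Ptpn22. A run of 7 in 18.3 kb had Zfp521, a zinc finger regulator of progenitors, as its nearest gene at 187 kb. At the Nf1 run the GFP+ CTCF shRNA list held 3 of 8, and at the Bcl2l15 and Ptpn22 run the Thy1+ list held 8 with CTCF shRNA and 2 in control. None of the transient sites of these 10 runs was in the day 12 control list, and 1, at the Wdr43 run, was in the day 12 Smarca5 shRNA list.

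A transient site lay inside, or at most 50 kb from, 16810 of 21631 protein-coding genes, 77.7%, with a median of 2. Nearness of a gene to a transient site is therefore the usual state and marks no gene. The counts followed the length of the gene's window: the median was 1 in the shortest class of windows (median 104 kb) and 12 in the longest (median 551 kb). Per Mb of window the means ran from 13.1 to 24.2 over the 6 length classes, without a steady rise at the longest (20.3).

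**Figure D4:**
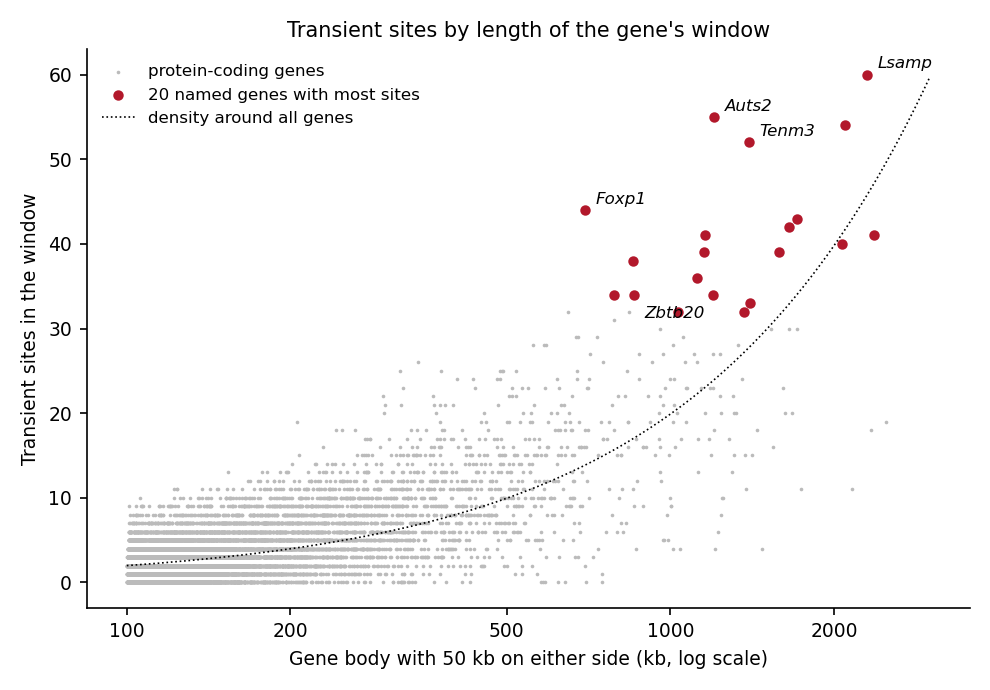
Transient sites inside a gene or up to 50 kb from it (count) against the length of that window (kb, log scale) for 21631 protein-coding genes; red points are the 20 genes with the most sites, led by Lsamp with 60. The dotted line is the density around all genes, 19.9 sites per Mb.

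The genes with the most transient sites were long ones. Lsamp, a neuronal surface protein of the immunoglobulin superfamily, had 60 in a window of 2297 kb, or 26.1 per Mb. Of these, the CTCF shRNA lists held 1 at day 0, 57 for Thy1+, 60 for SSEA1-Thy1-, 56 for SSEA1+ and 5 for GFP+ cells, while the Thy1+ control list held 37. Auts2, a neurodevelopmental gene, had 55 (45.6 per Mb), Macrod2, a hydrolase of ADP-ribose marks, 54, and Tenm3, a teneurin of synaptic matching, 52. The presynaptic adhesion gene Nrxn3 had 43, and the Slit receptors Robo2 and Robo1 had 42 and 36. Receptor phosphatases Ptprd and Ptprg had 41 and 34, and the synaptic scaffolds Dlg2 and Magi2 had 40 and 39. Gpc6, a glypican, had 39, Negr1 38, the neural alpha-catenin Ctnna2 34, the phosphodiesterase Pde4d 33, and Agbl4 and Immp2l 32 each.

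A pair of transcription factor genes stood among these 20. Foxp1, a forkhead repressor, had 44 transient sites in 697 kb, the densest of the 20 at 63.1 per Mb, against 17.3 for Ptprd, the sparsest. Of the 44, the CTCF shRNA lists held 3 at day 0, 43 for Thy1+, 44 for SSEA1-Thy1-, 42 for SSEA1+ and 12 for GFP+ cells, while the Thy1+ control list held 33. At day 10, 7 were listed with CTCF overexpression and Smarca5 shRNA, 6 with CTCF overexpression and 9 in control, and none at day 12. The same window held 17 opened and kept and 16 late closing sites. Zbtb20, a zinc finger repressor of liver and brain, had 34 (39.6 per Mb), with 9, 6 and 9 of them in the 3 day 10 lists in the same order.

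Around the genes of 16 themed lists, transient sites made up between 8.06% (housekeeping) and 16.7% (neural) of all sites, beside 16.4% around all protein-coding genes. Of 370 distinct listed genes, 316 had a transient site within 50 kb, 85.4%, beside 77.7% of all genes. Around TGF-beta, BMP and Nodal genes, whose ligands drive or block the epithelial switch, 33 of 34 had one, with a median of 4 and 29.6 per Mb, against 19.9 per Mb around all genes. Other sites were dense there too: opened and kept sites stood at 16.5 per Mb against 11.2, and transient sites made up 16.3% of all sites around these genes, beside 16.4% around all genes. The receptor Bmpr1b had 15, the ligand Tgfb2 10, the co-receptor Tgfbr3 10 and the receptor Acvr1 9. At Tgfb2 the CTCF shRNA lists held 2 of 10 at day 0, 10 for Thy1+, 10 for SSEA1-Thy1-, 9 for SSEA1+ and 1 for GFP+ cells, and the day 10 lists held 5 with CTCF overexpression and Smarca5 shRNA, 2 with CTCF overexpression and 4 in control.

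**Figure D5:**
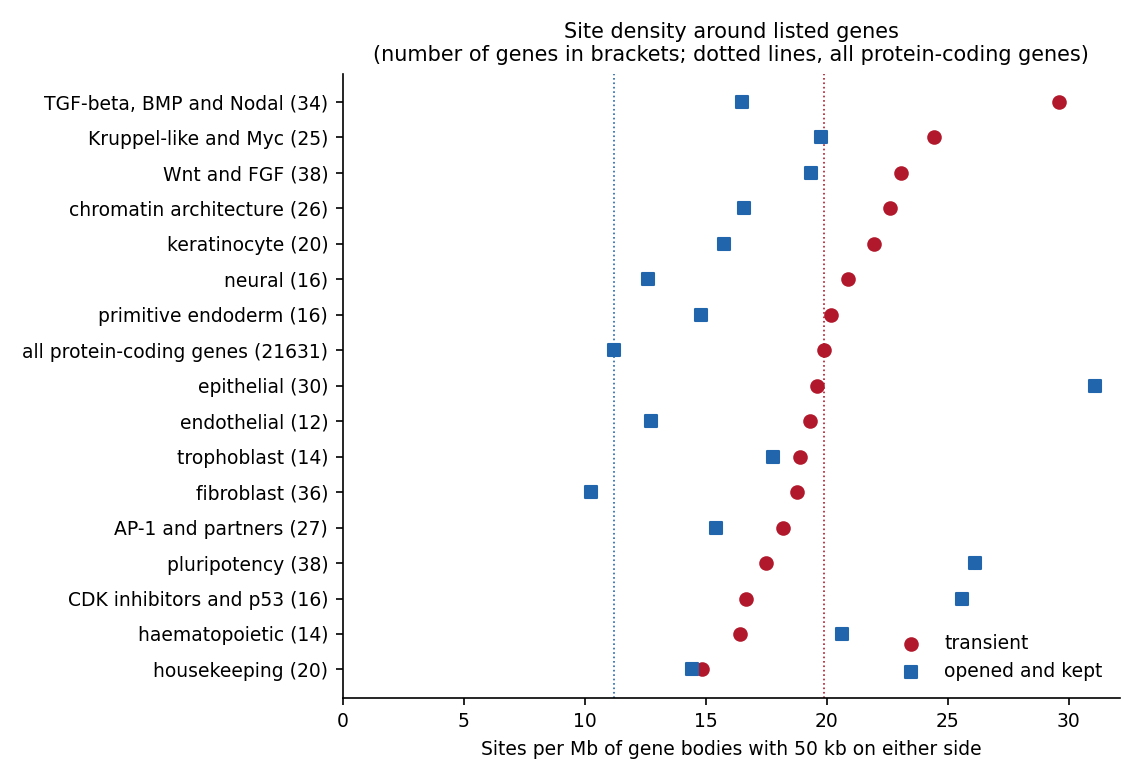
Transient sites (red circles) and opened and kept sites (blue squares) per Mb of genes extended by 50 kb each way, for 16 gene lists and all protein-coding genes; dotted lines mark all genes at 19.9 and 11.2 per Mb. Pluripotency genes stand at 17.5 for transient and 26.1 for opened and kept sites.

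Of all protein-coding genes, 77.7% had a transient site within 50 kb. Among pluripotency genes a transient site lay near 30 of 38, at 17.5 per Mb, while opened and kept sites stood at 26.1 per Mb. Of all sites around them 11.0% were transient, near the 11.3% of fibroblast and of epithelial genes and above the 9.42% of AP-1 and partner genes and the 9.01% of CDK inhibitor and p53 genes. The LIF receptor gene Lifr had 11 transient sites, the nuclear receptor genes Nr5a2 and Esrrb 6 and 4, and Il6st, the shared receptor chain, 4. Epithelial genes were alike, with 25 of 30, 19.6 per Mb and 31.1 per Mb of opened and kept sites. Among them Ehf had 10, the tight junction gene Ocln 8 and Grhl2, an epithelial transcription factor, 7. Fibroblast genes had a site near 32 of 36, at 18.8 per Mb. N-cadherin (Cdh2) had 11, Zeb2, a repressor of E-cadherin, 8, and Col6a3 and Dcn 6 each.

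The remaining lists lay between 14.9 per Mb (housekeeping, 15 of 20 genes) and 24.4 per Mb (Kruppel-like and Myc, 21 of 25). All protein-coding genes stood at 19.9 per Mb, and 77.7% of them had a transient site within 50 kb. Among the Kruppel-like genes Klf12 alone had 22 of the 89 transient sites around this list. Its window was 520 kb long (42.3 per Mb), against a median of 115 kb for the list. Wnt and FGF genes had a site near 33 of 38, with 11 each at Lef1, Tcf7l2 and the co-receptor Lrp6. Genes of chromatin architecture had one near 23 of 26, with 15 at the cohesin subunit Stag1 and 9 at its loader Nipbl. AP-1 and partner genes had one near 22 of 27, with 14 at Bach2, 12 at Tead1 and 11 at Runx2. CDK inhibitors and p53 genes had one near 13 of 16, with 9 at Rb1. Of the markers of other cell types, a transient site lay near 12 of 14 haematopoietic, 12 of 12 endothelial, 14 of 16 neural, 15 of 16 primitive endoderm and 10 of 14 trophoblast genes. Among these, Map2 had 13, Lama1 10, Ptprc 8, and Tek and Elf5 6 each.

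At gene ends a transient site was present for 1416 protein-coding genes, 6.55%. In the keratinocyte list 5 of 20 genes had one: Ivl, Krtdap, the stress keratins Krt6a and Krt6b, and the desmosomal cadherin Dsg3. Krt6a and Krt6b are near-identical neighbours, so their reads can be shared. Keratinocyte genes had a transient site within 50 kb in 16 of 20 cases, beside 77.7% of all protein-coding genes. The density around them was 22.0 per Mb, with 7 transient sites at Trp63, the master regulator of stratified epithelia. All 7 were in the Thy1+, SSEA1-Thy1- and SSEA1+ CTCF shRNA lists, 1 in the day 0 and 1 in the GFP+ CTCF shRNA list, and 5 in the Thy1+ control list. In the TGF-beta list 5 of 34 genes also had a transient site at an end (Tgfb2, Tgfbr1, Smad3, Smad7 and Id3), as did 4 of Wnt and FGF and 4 of AP-1 and partners. Among pluripotency genes Lifr was the only one of 38, and among housekeeping genes Ywhaz the only one of 20.

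Promoter windows under a transient site were poor in CpG. The 281 windows, of 263 genes, had a median GC content of 46.7% and 3 CpG, as had windows free of any control site (47.3% and 3). Opened and kept windows had 53.7% and 6, late closing windows 50% and 5, and windows held throughout 62.7% and 22. Protein-coding genes owned 40.6% of the windows under a transient site and 64.5% of all windows. Motif matches were counted on both strands of the 300 bases, for 17 motifs, and describe letters and not binding.

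The Sox motif ATTGTT was in 59 windows under a transient site, 21.0% (16.4 to 26.2), against 14.9% of windows free of sites, 12.9% of late closing, 11.6% of opened and kept and 10.6% of all windows. Among the 114 protein-coding windows under a transient site, the Sox motif was in 19, 16.7% (10.3 to 24.8). The octamer was in 12 of the 281, 4.27% (2.23 to 7.34), against 1.82% of windows free of sites, 3.82% of opened and kept and 1.75% of all. Gata matches (AGATAA) were in 47, 16.7% (12.6 to 21.6), against 16.1% of windows free of sites and 11.2% of all. Late closing windows had them in 7.38% and opened and kept windows in 10.96%. Cebp matches (TTGCNNAA) were in 45, 16.01% (11.9 to 20.8), against 13.2% of windows free of sites and 10.9% of all. Late closing windows had these in 13.3% and opened and kept windows in 11.96%. A share above that of all windows was thus not particular to the Sox motif and the octamer. Klf matches (GGGNGTGGC) were in 17, 6.05% (3.56 to 9.51), against 2.94% of windows free of sites, 8.80% of opened and kept and 5.78% of all. Matches to the Myc E-box (CACGTG) were in 9, 3.20% (1.47 to 5.99), against 4.72%, 8.64% and 7.20% in the same order. AP-1 matches were in 32, 11.4% (7.92 to 15.7), against 25.5% (20.4 to 31.1) of late closing windows, 6.15% of opened and kept, 8.90% of windows free of sites and 7.85% of all. The CTCF motif was in 4, 1.42% (0.389 to 3.60), against 2.44% of all windows. The Zeb and Snail E-box CACCTG was in 21.7% of transient and 34.1% of opened and kept windows. Ets matches (CCGGAAGT) were in 1 transient window, 0.356%, and in 8.23% of windows held throughout. GC content differs between these window sets, and its part in the motif shares was not tested. Since 2.00% of transient sites lay within 1 kb of a start, these windows stand for few of them.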

How the data were processed

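Each of the 15 groups had 1 deposited BED peak list, named in the description of all its samples. The submitters' processing notes name MACS2, Picard, SAMtools, Bowtie2, cutadapt, Trim Galore and FastQC, and the builds mm10 and GRCm38. Peak thresholds, any shift of reads for the transposase, and the pooling of samples within a group are not stated there. The deposited score column is 0 throughout, so peaks could not be ranked, and depth is unknown.

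Intervals on chromosomes 1 to 19 and X were merged into sites, with an overlap of 1 bp. Shares carry exact Clopper-Pearson 95% intervals (counting error over sites only). Lost sites are in the control list only, gained sites in the treated list only; no p-value was computed. Overlap code was tested on simulated intervals. Genes came from a RefSeq table (GRCm38.p6, 21631 protein-coding genes with 1 position), and 300-base promoter windows and sequences from RefSeq. No genome sequence was used, so the motif count planned over all sites was made in promoter windows. Python 3.11.15, pandas 2.3.3, numpy 2.4.6, scipy 1.17.1 and matplotlib 3.10.9 were used.

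The transient sites, gene lists and motifs were chosen with earlier results of these data known. Named genes are the 20 with the most transient sites within 50 kb, up to 4 per list, list genes with one at a gene end, and the 10 runs with the most sites. An item withheld for evaluation is not reported here. The printed Sprr2b, Sucnr1 and Ptprh promoters were chosen after their motifs were seen. Alternatives changed the overlap, site width, distances and chromosomes.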

Additional observations from a re-analysis of the deposited data

How the results depend on the processing

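Of 64 alternative values for 16 reported results, 54 stayed within the reported interval (counts within 1.5 times) and 10 moved. Changes of direction were not looked for. Asking for at least 200 bp of overlap moved the shares of transient sites at day 10 to 13.4% with CTCF overexpression and Smarca5 shRNA, 8.57% with CTCF overexpression and 12.3% in control, and at day 12 to 0.601% with Smarca5 shRNA and 0.289% in control. It moved the share gained when Smarca5 shRNA was added to 6.07%. In the CTCF shRNA lists, that setting moved the number of transient sites held, or of those with the transient order, by 1 at most. Peak positions there appear to be shared with the control lists, so this setting could hardly move these counts. Within 2.5 kb of a gene end, the share was 6.84%. With the SSEA1+ CTCF shRNA list not asked, 76.7% kept the transient order. With 20 kb or 100 kb on either side, 68.1% or 95.7% of list genes had a transient site. Of all protein-coding genes, 59.7% or 88.2% had one. Leaving out the SSEA1+ CTCF shRNA list, and the alternatives for the sites lost and gained at day 10, were chosen after seeing the data. Restricting to sites of 400 bp, to chromosomes 1 to 19, or to sites with no day 0 or GFP+ interval within 500 bp moved none of the 15 results recomputed. In that order, these settings kept 44327, 43170 and 43561 of the 44606 transient sites, so the shares had little room to move. No paired analysis was possible because each group has 1 list and its samples have no columns of their own; for the same reason no replicate could be left out. Unknown depth limits every share: a site absent from a list had no listed peak there, which does not show that it was closed.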
